A study of Homo sapiens with 6 samples.

Results

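miR-101 is a small regulatory RNA that is described as a tumor suppressor in hepatocellular carcinoma (HCC). Its precursor hairpins give a product from the 3′ arm, hsa-miR-101-3p, and products from the 5′ arm, of which hsa-miR-101-5p was counted here. Both were taken by name from the deposited miRNA table, so that they are 2 of its 2588 rows. hsa-miR-101-3p passed the filter on low counts, as did 552 rows in all, and hsa-miR-101-5p did not.

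The miRNAs were sequenced in Huh7 cells, a human hepatoma cell line. In the overexpression group (3 samples), the cells had received a PLC5-CIR plasmid carrying the circular RNA hsa_circ_0098181, and in the control group (3 samples) they had received the control plasmid. Lipofectamine 2000 was the transfection reagent in both groups, and RNA was taken after 48 h. The comparison asks which miRNAs differ in level when this circular RNA is supplied, and the expression is transient and plasmid-driven in a single cell line.

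A mature miRNA guides an Argonaute protein to messenger RNAs, mainly through pairing of its seed, the bases near its 5′ end, and lowers their translation and stability. miR-101-3p is known for repressing EZH2, the histone methyltransferase of the Polycomb repressive complex, and in the liver also MCL1, which protects cells from apoptosis, and the transcription factor FOS. Low levels of miR-101-3p have been described in HCC, whereas less is known of the 5p arm, which is commonly the discarded strand of the duplex.

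The mature sequences show which miRNAs can share targets or be counted for each other. They are given 5′ to 3′ from RefSeq (GRCh38.p14), with the seed (bases 2 to 8) in capitals. miR-144-3p is shown because it shares most of the 3p seed, and miR-101-2-5p because it is the 5p arm of the other hairpin.
hsa-miR-101-3p: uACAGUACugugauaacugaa
hsa-miR-101-5p: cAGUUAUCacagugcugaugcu
hsa-miR-101-2-5p: uCGGUUAUcaugguaccgaugc
hsa-miR-144-3p: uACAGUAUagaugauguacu

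RefSeq gave a sequence for 2281 of the 2588 rows. Bases 2 to 7 of hsa-miR-101-3p were found in 1 other row, hsa-miR-144-3p, which differs at base 8, and those of hsa-miR-101-5p in 0 other rows. Over the whole mature sequence, seed included, the nearest of the rows with a RefSeq sequence were distant as well. The best ungapped alignment of hsa-miR-101-3p, with miR-3133 and miR-512-3p, matched 14 of its 21 bases, and that of hsa-miR-101-5p, with miR-16-1-3p, matched 15 of its 22 bases. hsa-miR-101-2-5p is not a row used here.

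The hairpins are shown because the same 3p sequence lies in both, so that its reads cannot be assigned to either, whereas the 5p arms differ. The arms are in capitals.
MIR101-1: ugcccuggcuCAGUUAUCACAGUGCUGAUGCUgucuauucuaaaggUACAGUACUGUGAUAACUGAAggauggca
MIR101-2: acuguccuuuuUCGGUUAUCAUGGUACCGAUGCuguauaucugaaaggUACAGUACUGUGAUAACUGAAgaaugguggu

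MIR101-1 is 75 bases long and lies at chr1:65058434-65058508 on the minus strand. Its 3p arm is at chr1:65058442-65058462 and its 5p arm at chr1:65058477-65058498. In GENCODE release 29 (GRCh38), no gene other than MIR101-1 itself contains this position. MIR101-2 is 79 bases long and lies at chr9:4850297-4850375 on the plus strand, with its 3p arm at chr9:4850345-4850365. It overlaps 5 transcripts of the protein-coding gene RCL1 on the same strand and none of their exons, so that it is intronic. The antisense gene AL158147.1 covers chr9:4850299-4850373 on the other strand, and since a strand setting of the counting is not given in the sources used here, reads of the opposite strand cannot be told apart. In the predicted minimum free energy structure, MIR101-1 had a folding energy of -36.2 kcal/mol and MIR101-2 of -30.0 kcal/mol, and 20 of the 21 bases of the 3p arm were paired in each. The 5p arms of the hairpins matched at 16 of 21 aligned bases, with 5 mismatches, and their seeds differ.

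The overexpression libraries held 7978507, 8469016 and 8289232 assigned reads (replicates 1, 2 and 3), and the control libraries 10786295, 8677214 and 7144798. Control replicate 3 stood apart from the other control samples. Over 308 miRNAs with a mean of at least 10 CPM (the count scaled by the total of the library), its median absolute log2 difference was 0.23 from control replicate 1 and 0.22 from control replicate 2, while controls 1 and 2 differed by 0.077 and the overexpression samples among themselves by 0.10 to 0.14. From overexpression replicates 1, 2 and 3, control 3 differed by 0.15, 0.22 and 0.19, so that it was nearer to overexpression 1 and 3 than to the other controls. For this reason the group means in TPM and fold changes of both arms and their ratio are also given without it. The calls and the directions in the miRNA lists below are as well, and other values include it unless stated.

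hsa-miR-101-3p was counted 13960, 15808 and 13954 times in overexpression replicates 1, 2 and 3. In the control replicates it was counted 19535, 17114 and 9248 times. In the deposited TPM, which equals CPM without normalization factors, the level was 1750, 1867 and 1683 TPM with hsa_circ_0098181 and 1811, 1972 and 1294 TPM with the control plasmid. The groups overlapped, with the highest value in control 2 and the lowest in control 3. The 95% Poisson interval of control 3 was 1268 to 1321 TPM. Such intervals cover counting error only, as reads amplified by PCR are not independent molecules, and they are narrow at this depth, so that the spread between samples is the error used for the comparison.

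**Figure D1:**
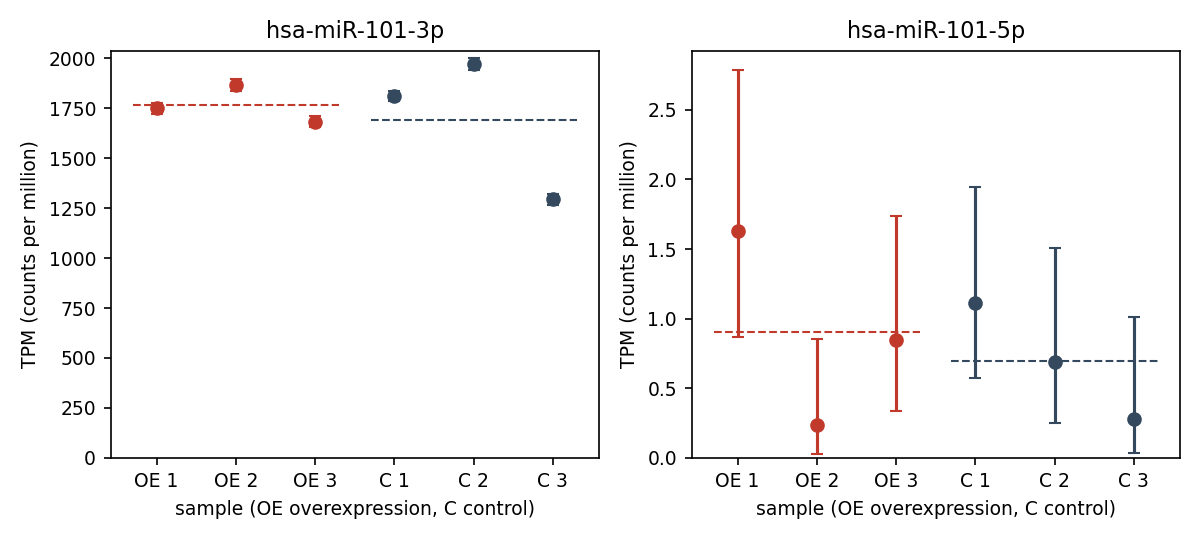
Level of hsa-miR-101-3p (left) and hsa-miR-101-5p (right) in TPM (CPM of the library total) in the 3 overexpression samples (OE, red) and the 3 control samples (C, dark blue). Points are samples with 95% Poisson intervals, which cover counting error only, dashed lines are group means, both axes start at 0, and control 3 has the lowest 3p value (1294 TPM).

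The mean level of hsa-miR-101-3p was 1767 ± 92.7 TPM with hsa_circ_0098181 (SD, n = 3) and 1693 ± 354 TPM with the control plasmid (SD, n = 3). Without control replicate 3 the control mean was 1892 ± 114 TPM (SD, n = 2), above that of the overexpression group. After normalization by TMM factors, which correct for the composition of the libraries, the means were 1842 ± 161 CPM (SD, n = 3) and 1635 ± 389 CPM (SD, n = 3). By edgeR's quasi-likelihood test, the log2 fold change (overexpression minus control) came to 0.17 with a standard error of 0.14, a 95% confidence interval from -0.14 to 0.48 and an adjusted p of 0.698. As a ratio this is 1.13-fold, with an interval from 0.908 to 1.40. The difference was within the spread between the samples. In these bulk samples, fewer cells with the miRNA and less of it per cell cannot be told apart.

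The direction rested on control replicate 3. Without that library, edgeR gave hsa-miR-101-3p a log2 fold change of -0.032 with a standard error of 0.072, a 95% confidence interval from -0.18 to 0.11 and an adjusted p of 0.844, and in all alternatives run the adjusted p from edgeR, DESeq2 or limma lay between 0.599 and 0.952. With the library size alone in place of TMM factors it was 0.062, where the median of all miRNAs tested moved from 0.0038 to -0.11. As background, with all 6 samples edgeR called 0 of the 552 miRNAs tested (0%) at an adjusted p under 0.05, and DESeq2 called 0. At an unadjusted p under 0.05 there were 50 (9.06%) in edgeR and 41 in DESeq2. Without control replicate 3, edgeR called 56 of 565 miRNAs (9.91%), and hsa-miR-101-3p was not among them.

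**Figure D2:**
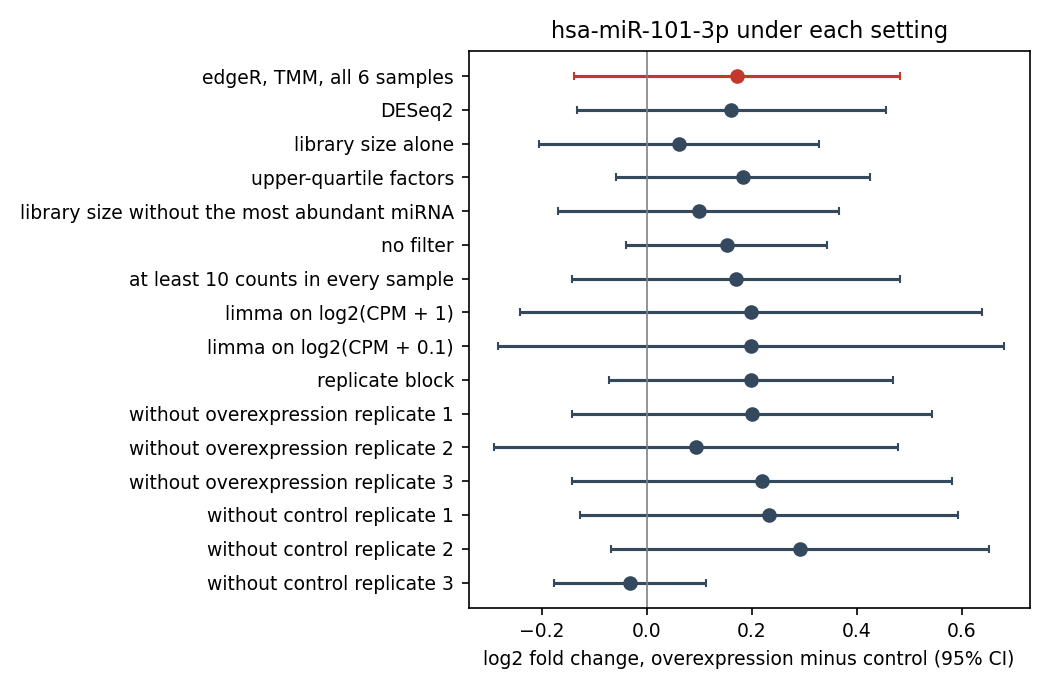
Log2 fold change of hsa-miR-101-3p (overexpression minus control, horizontal axis) under each setting (rows). Points are estimates and bars 95% confidence intervals, with the fit of all 6 samples by edgeR in red. Every interval drawn includes 0, and the estimate is below 0 only without control replicate 3 (-0.032).

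By its mean over all 6 samples, 1730 TPM, hsa-miR-101-3p was the 48th most abundant of the 1366 miRNAs with a count. Its place was 46, 41 and 48 with hsa_circ_0098181 and 47, 47 and 55 with the control plasmid. Its neighbours were miR-22-3p, at 1738 TPM, and miR-151a-3p, at 1688 TPM. These 3 mean levels differed by less than the SD of hsa-miR-101-3p between the control samples, so that their order is not resolved. Mature miRNAs are nearly equal in length, and the deposited TPM carries no correction for it.

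The place of hsa-miR-101-3p among miRNAs of like role was also read from the mean TPM. Together with 20 other miRNAs described as HCC tumor suppressors it was 7th of 21, after miR-29b-3p (1894 TPM) and before miR-200a-3p (1322 TPM), with the hepatocyte miRNA miR-122-5p first at 322041 TPM. The order of these neighbours was not the same in both groups. Its mean of 1767 TPM with hsa_circ_0098181 was above that of miR-29b-3p (1563 TPM), while with the control plasmid its mean of 1693 TPM was below (2224 TPM). In control 3 it was also below miR-200a-3p (1346 TPM). Among the 13 other miRNAs known to target EZH2 it was 5th of 14. There, miR-25-3p (29904 TPM), miR-26b-5p (29106 TPM), miR-26a-5p (9503 TPM) and let-7a-5p (2241 TPM) were above it, and miR-30d-5p (840 TPM) followed.

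hsa-miR-101-5p was counted 13, 2 and 7 times in overexpression replicates 1, 2 and 3. It was counted 12, 6 and 2 times in control replicates 1, 2 and 3. In TPM these counts were 1.63, 0.236 and 0.845 with hsa_circ_0098181 and 1.11, 0.692 and 0.280 with the control plasmid. The groups overlapped, with low values in overexpression 2 and control 3, and the Poisson interval of the highest sample (0.868 to 2.79 TPM) met that of each control sample but not that of overexpression 2 (0.0286 to 0.853 TPM). The means were 0.903 ± 0.698 TPM (SD, n = 3) and 0.695 ± 0.416 TPM (SD, n = 3). Without control replicate 3 the control mean was 0.902 ± 0.298 TPM (SD, n = 2).

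The filter asks for about 1.19 CPM in 3 samples, and hsa-miR-101-5p reached that in 1 sample. It therefore has no value in the fit of 552 miRNAs. When it was kept in, a choice made after seeing the data, edgeR gave a log2 fold change of 0.36 with a standard error of 0.64, a 95% confidence interval from -1.01 to 1.73 and an adjusted p of 0.828. Without overexpression replicate 1 the value was -0.33 and without control replicate 3 it was 0.013, and in all alternatives run the adjusted p from edgeR, DESeq2 or limma lay between 0.722 and 0.997. From the summed counts alone, 22 against 20, the ratio per library size was 1.18 with a 95% interval of 0.616 to 2.29 (counting error only). A difference of the size of this interval was not detectable at this depth.

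The 3p arm made up nearly all counts of miR-101. Over the 6 samples there were 89619 counts of hsa-miR-101-3p and 42 of hsa-miR-101-5p, a ratio of 2134, and the 5p share was 0.0468% (95% Clopper-Pearson interval 0.0338 to 0.0633%, counting error only). In single samples, with 2 to 13 counts of the 5p arm, the share was 0.0127% in overexpression 2 (0.00153 to 0.0457%) at the lowest and 0.0930% in overexpression 1 (0.0495 to 0.159%) at the highest. The 3p counts can come from either hairpin and the 5p counts from the MIR101-1 arm, so that this is no ratio within a hairpin. With 0.5 added to each count, the log2 ratio of 3p to 5p was 10.01, 12.63 and 10.86 in overexpression replicates 1, 2 and 3. In control replicates 1, 2 and 3 it was 10.61, 11.36 and 11.85. Overexpression 2 had the highest and overexpression 1 the lowest ratio, and the control samples lay between them.

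The mean log2 ratio was 11.17 ± 1.33 with hsa_circ_0098181 (SD, n = 3) and 11.28 ± 0.63 with the control plasmid (SD, n = 3). The difference of -0.11 was smaller than either SD (p = 1 in a two-sided exact permutation test, whose smallest possible p is 0.1 in this design). Its sign turned when single libraries were left out, to 0.47 without overexpression 1, 0.045 without overexpression 3 and 0.18 without control 3.

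Compared with other miRNAs, the counts of miR-101 were strongly one-sided. The arms were paired by name alone. For miR-101 the 3p counts can come from either hairpin, while the 5p arm of MIR101-2 has no row. Its place below is therefore one of the counted rows and no measure of arm choice within a hairpin. Among 287 names with a row for each arm and at least 1 arm passing the filter, a set chosen after seeing that hsa-miR-101-5p did not pass, the median absolute log2 ratio was 4.52, and miR-101 was 6th with 11.22. The names above it were miR-130a, miR-19a, miR-96, miR-95 and miR-450b, of which miR-130a and miR-95 had 0 counts of the minor arm. Just below it were miR-196a (11.09) and miR-548x (11.02, with 0 counts of the minor arm), so that its order against these is not resolved. The 3p arm was the higher in 136 names, where miR-101 was 4th, and the 5p arm in 151. In the 135 names with both arms passing the filter, the median was 3.69 and the highest value 11.09. A minor arm can be seen to be rare only where the major arm is deep. The same was therefore read for the 86 names with at least 10000 counts of the more abundant arm. There the median was 6.56 and miR-101 was again 6th.

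**Figure D3:**
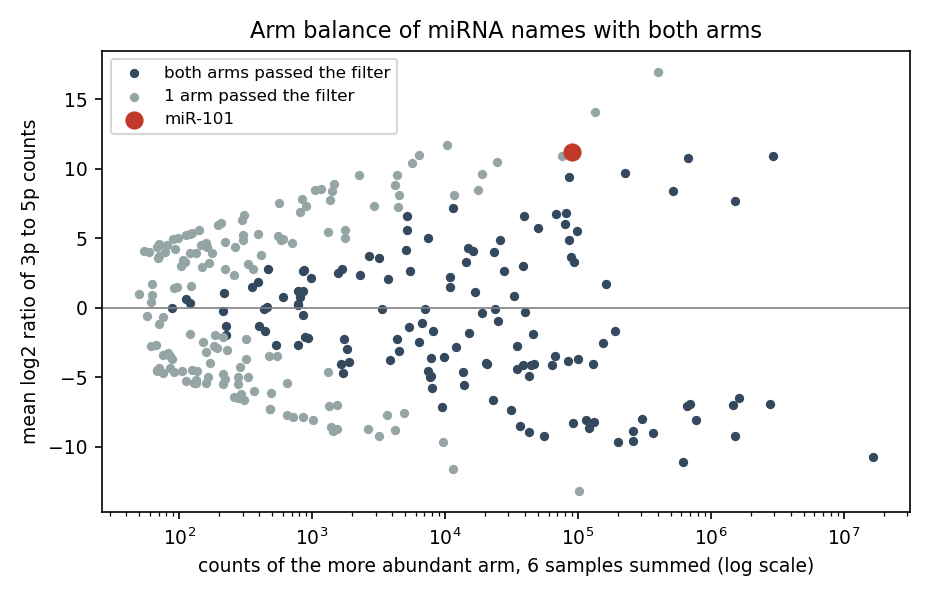
Mean log2 ratio of 3p to 5p counts over the 6 samples (vertical axis, 0.5 added to each count) against the summed counts of the more abundant arm (log scale) for 287 miRNA names. Each point is a name, dark blue where both arms passed the filter and grey where 1 did, and miR-101 (red) lies at 11.22, near the upper edge. The 3p counts of miR-101 can come from either hairpin, and its 5p counts are those of the MIR101-1 arm.

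The seed relative hsa-miR-144-3p, an erythroid miRNA, was close to the limit of detection. It was counted 4, 0 and 0 times in overexpression replicates 1, 2 and 3. In control replicates 1, 2 and 3 it was counted 3, 3 and 2 times, 12 counts in all against 89619 of hsa-miR-101-3p. A count of 0 allows up to 0.354 TPM in overexpression 2 and 0.362 TPM in overexpression 3 (3 counts of the library), so that no difference was detectable. hsa-miR-3671, whose precursor lies 592 bases from MIR101-1 on the same strand, had 0 counts in the 6 libraries together, which allows up to 0.0584 TPM.

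The log2 level of hsa-miR-101-3p in control replicate 3 was -0.64 relative to controls 1 and 2 (0.641-fold in TMM-normalized CPM), the 13th lowest of 308 miRNAs, where the median was -0.018. Pearson's r over the 6 samples of the log2 TMM-normalized CPM was highest with miR-769-5p (0.99), miR-29c-3p (0.96), miR-573 (0.95), miR-192-5p (0.95) and miR-126-5p (0.95), among 307 miRNAs. In control 3 these 5 had log2 values of -0.35, -0.31, -0.63, -0.32 and -0.60 relative to controls 1 and 2, which the choice by r favours, since that sample is the farthest from the rest for hsa-miR-101-3p. By Spearman's rho, 1 of the 5 was again among the 5 most alike. miR-29c-3p is a tumor suppressor that represses collagen genes, miR-192-5p is abundant in hepatocytes, and miR-126-5p comes from the endothelial gene EGFL7. With 6 samples that share the same libraries and 1 sample far from the rest, 19 of the 307 miRNAs had an r above 0.9, and r is given as a description. The other extreme was miR-27a-5p, with an r of -0.97.

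**Figure D4:**
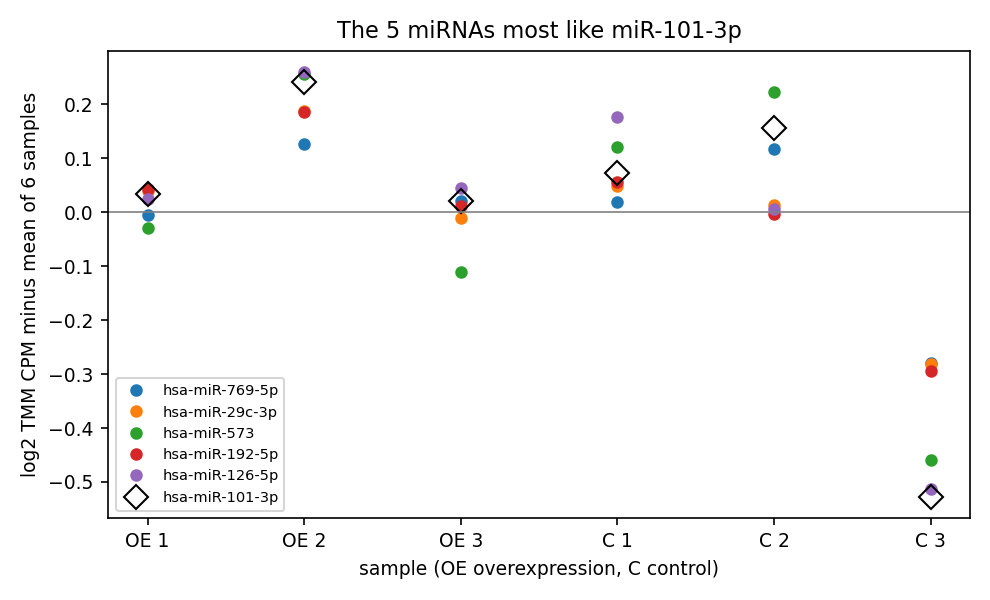
Log2 TMM-normalized CPM minus the mean of the 6 samples (vertical axis) for hsa-miR-101-3p (open diamonds) and the 5 miRNAs with the highest Pearson's r to it (filled points) in each overexpression (OE) and control (C) sample. All 6 miRNAs have their lowest value in control 3.

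For hsa-miR-101-5p the highest r was found with miR-191-3p (0.934), miR-548k (0.914), miR-335-3p (0.901), miR-32-3p (0.835) and miR-122-3p (0.797). With 42 counts in all, this order rests on sparse values. None of the 5 was shared with those of hsa-miR-101-3p.

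The other miRNAs known to target EZH2 were split between both directions. Of the 13, 12 were tested, of which 6 were lower and 6 higher in the overexpression group, with a median log2 fold change of -0.0026 beside 0.0038 for all 552. In edgeR 0 had an adjusted p under 0.05 and 2 of the 12 an unadjusted p under 0.05, both higher, beside 9.06% of all miRNAs tested (24 higher and 26 lower). These were miR-25-3p, of the MCM7 gene, with 0.23 (standard error 0.067, adjusted p = 0.306 from edgeR), and miR-217, with 0.27 (standard error 0.12, adjusted p = 0.507 from edgeR). The list's miR-98-5p, let-7c-5p, let-7a-5p, let-7b-5p and let-7e-5p had log2 fold changes from -0.18 to -0.11, none with an unadjusted p under 0.05, and miR-26a-5p and miR-26b-5p were at 0.039 and 0.099. With the library size alone, 8 were lower and 4 higher, and the median was -0.12 beside -0.11 for all. At an unadjusted p under 0.05, 2 were then lower and 0 higher, beside 69 lower and 1 higher among all miRNAs tested. The smallest p was that of let-7a-5p, and miR-25-3p and miR-217 no longer passed. With TMM factors and without control replicate 3 there were 7 lower and 5 higher, with a median of -0.0094 beside -0.0013 for all. miR-26a-5p and miR-26b-5p were then at -0.0034 and -0.015, and miR-217 was at 0.17 with an unadjusted p above 0.05.

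Of the 20 other HCC tumor suppressor miRNAs, 17 were tested, and 7 were lower and 10 higher in the overexpression group, with a median of 0.039. In edgeR 0 had an adjusted p under 0.05 and 4 of the 17 an unadjusted p under 0.05, beside 9.06% of all miRNAs tested. The lower ones were miR-29b-3p, which represses collagens and MCL1, with -0.40 (standard error 0.10, adjusted p = 0.295 from edgeR), and miR-199a-5p with -0.47. The higher ones were miR-122-5p, the main miRNA of hepatocytes, with 0.19, and miR-125b-5p with 0.24. miR-29c-3p, whose seed is that of miR-29b-3p, was at 0.14, and at 0.023 without control replicate 3. With the library size alone 10 were lower and 7 higher, the median was -0.074 beside -0.11 for all, and miR-29b-3p had an adjusted p under 0.05. At an unadjusted p under 0.05, 5 were then lower and 0 higher, beside 69 lower and 1 higher among all miRNAs tested. Of those named above, miR-122-5p and miR-125b-5p no longer passed. With TMM factors and without control replicate 3 there were 9 lower and 8 higher, with a median of -0.0034 beside -0.0013 for all.

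Of the 18 miRNAs described as oncogenic in HCC, 16 were tested, and 7 were lower and 9 higher in the overexpression group, with a median of 0.076. In edgeR 0 had an adjusted p under 0.05 and 7 of the 16 an unadjusted p under 0.05, as did 9.06% of all miRNAs tested. miR-17-5p (-0.34), miR-18a-5p (-0.42), miR-106b-5p (-0.37) and miR-96-5p (-0.24) were lower, and miR-92a-3p (0.24), miR-25-3p (0.23) and miR-182-5p (0.19) were higher. miR-17-5p, miR-18a-5p and miR-92a-3p are made from the miR-17-92 transcript, and miR-96-5p and miR-182-5p also share a transcript. The most abundant member, miR-21-5p, was at 0.13. With the library size alone 9 were lower and 7 higher, the median was -0.031 beside -0.11 for all, and miR-17-5p had an adjusted p under 0.05. At the unadjusted threshold 4 were then lower and 0 higher, beside 69 lower and 1 higher among all miRNAs tested. Of those named above, miR-92a-3p, miR-25-3p and miR-182-5p no longer passed. With TMM factors and without control replicate 3 there were 6 lower and 10 higher, with a median of 0.088 beside -0.0013 for all.

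The 3 lists overlap, since miR-26a-5p, miR-124-3p and miR-214-3p stand among both the EZH2-targeting and the tumor suppressor miRNAs and miR-25-3p among both the EZH2-targeting and the oncogenic ones. DESeq2 called 0 miRNAs of any list. The counts of 0 in edgeR changed with 3 of the alternatives. With the library size alone, miR-29b-3p and miR-17-5p passed the threshold, both lower, beside 0.543% of all miRNAs tested. With no filter, miR-29b-3p, miR-17-5p and miR-18a-5p passed it, all lower, beside 0.439%. The largest move came without control replicate 3. Without it, 2 EZH2-targeting, 3 tumor suppressor and 9 oncogenic miRNAs passed the threshold in edgeR, beside 9.91% of all miRNAs tested. The 2 EZH2-targeting ones were higher, the tumor suppressors 2 lower and 1 higher, and the oncogenic ones 6 lower and 3 higher. Among all miRNAs called in that fit, 38 were lower and 18 higher. Among the list members called were miR-25-3p (0.24), miR-30d-5p (0.28), miR-29b-3p (-0.51), miR-148a-3p (-0.21), miR-125b-5p (0.25) and miR-19a-3p (-0.62).

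**Figure D5:**
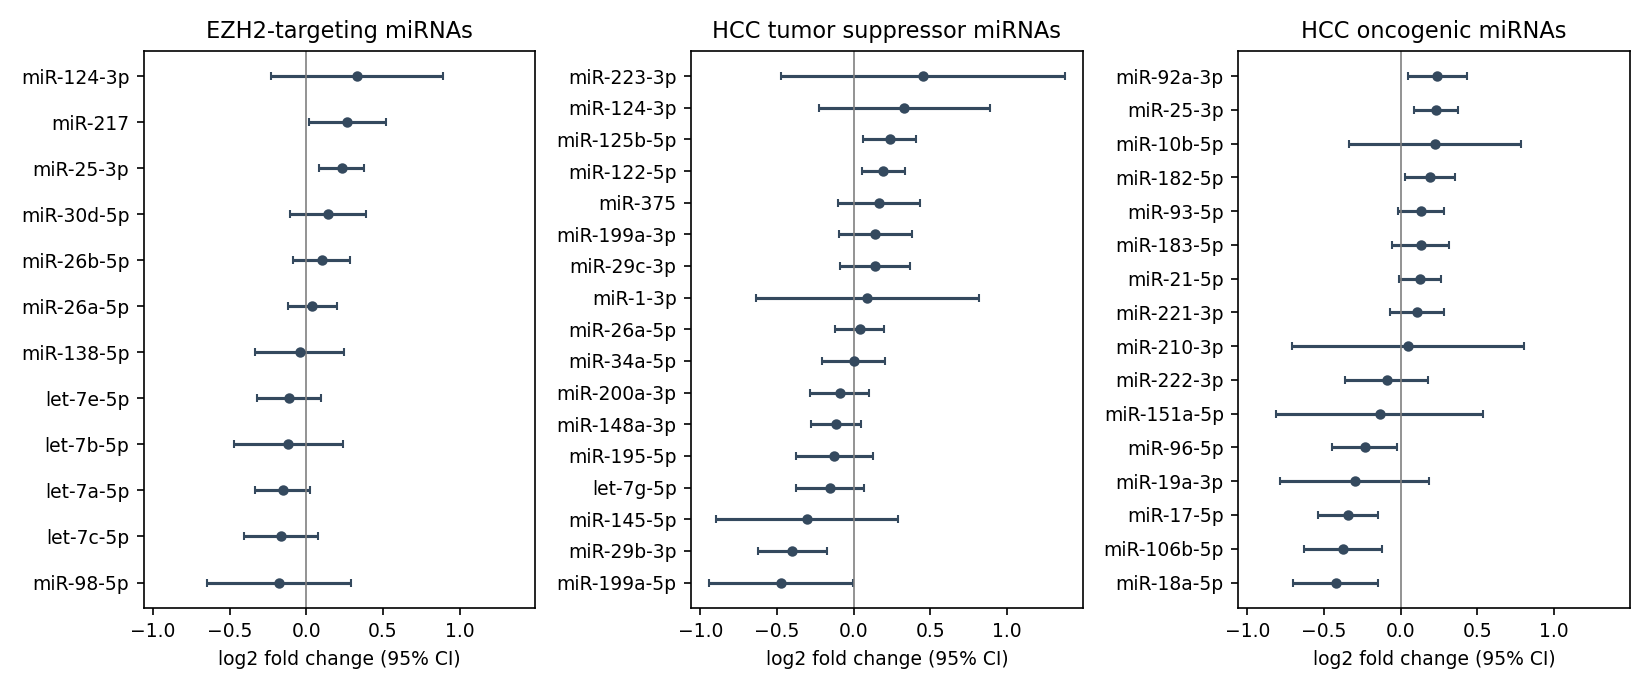
Log2 fold change (overexpression minus control, horizontal axis) of the tested members of the EZH2-targeting (12), HCC tumor suppressor (17) and HCC oncogenic (16) miRNAs. Points are edgeR estimates from all 6 samples, bars are 95% confidence intervals before adjustment for multiple testing, and members lie on both sides of 0 in each list.

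Among the marker miRNAs of cell types, those of hepatocytes had the highest sum. The 4 hepatocyte miRNAs (miR-122-5p, miR-192-5p, miR-194-5p and miR-885-5p) summed to 366040, 383967 and 376612 TPM in overexpression replicates 1, 2 and 3. The sum was 372468, 355418 and 346720 TPM in control replicates 1, 2 and 3. The groups overlapped, and most of the sum was miR-122-5p (mean of 322041 TPM over the 6 samples). The 3 erythroid miRNAs, among them hsa-miR-144-3p and led by miR-451a, summed to a mean of 1.38 TPM in the overexpression group and 1.49 TPM in the control group. The 3 leukocyte miRNAs, led by miR-142-3p, summed to 13.2, 12.3 and 12.8 TPM with hsa_circ_0098181 and 15.8, 18.3 and 16.4 TPM with the control plasmid, and these groups did not overlap. edgeR gave miR-142-3p a log2 fold change of -0.50 with an adjusted p of 0.314. Without control replicate 3 this was -0.57 with an adjusted p of 0.0182 from edgeR, the only 1 of 15 alternatives under the threshold, where the highest adjusted p was 0.847. The other leukocyte markers, miR-223-3p and miR-150-5p, had values on the other side of 0 (0.45 and 0.46), neither with an unadjusted p under 0.05. The endothelial miR-126-3p was at 3271, 3244 and 3186 TPM with hsa_circ_0098181 and 3162, 3165 and 3053 TPM with the control plasmid, and did not overlap between the groups in TPM either. As background, the TPM of the groups did not overlap for 18.3% of the 552 miRNAs tested, and the TMM-normalized CPM for 15.4%. As means of the overexpression and the control group, the 4 mesenchymal miRNAs, led by miR-143-3p, summed to 118 and 127 TPM, the 3 of striated muscle, led by miR-1-3p, to 1.90 and 1.92 TPM, and the 2 of neurons, led by miR-9-5p, to 125 and 128 TPM. None of these markers was at 0 in all samples, and their part in the level of hsa-miR-101-3p was not tested. All samples were of the Huh7 line, so that these are levels within that line. They are not read as a sign of other cell types.

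Sites for the seed of hsa-miR-101-3p were read in the 3′UTR of EZH2, its best known target. The letters searched were GTACTGT, the reverse complement of the seed as DNA. The search covered the transcribed strand only, in the longest annotated 3′UTR of each gene. The letters were found 2 times in the 262 bases of the 3′UTR of EZH2-206, 59 and 114 bases after the stop codon. These sites are at chr7:148807581-148807587 and chr7:148807526-148807532 on the minus strand. Each is shown with 14 bases before and 1 after, and the match is in capitals.
EZH2 site 1: ttcaggaacctcgaGTACTGTg
EZH2 site 2: tctgaatttgcaaaGTACTGTa

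Of 1275 genes with a 3′UTR within 20% of that length, 1.65% held the letters, and of all 19132 coding genes 9.93% did. The letters were also found 1 time each in the 3′UTRs of MCL1, PTGS2, FOS, STMN1 and DNMT3A, where 16.7%, 15.6%, 4.56%, 5.41% and 32.9% of 3′UTRs of similar length held them. They were found 0 times in the 3′UTRs of PPARA and SOX5, where 42.6% and 25.6% of 3′UTRs of similar length held them. These genes were chosen after the miRNA values were seen, and a match is a description of the letters in this window. Messenger RNA levels were not analysed here.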

How the data were processed

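miRNAs were sequenced in 6 samples of Huh7 cells, grouped by their labels. The authors deposited counts, the number of reads assigned to each mature miRNA, without normalization, and TPM values. The deposited TPM equalled the count scaled by the library total (CPM) to within 0.00303, with no correction for length or composition. The submitters' processing notes name TopHat2 2.0.9, TopHat, Bowtie and hg38, with no role given. Which miRNA annotation and mismatch limit were used, and how multi-mapping reads were treated, is not given in the sources used here. Nothing in the labels says that the replicates were separate cultures, so p-values measure the spread between these samples, which may be technical.

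Counts were analysed in R 4.3.3 with edgeR 4.0.16 (filterByExpr with a minimum count of 10 and total of 15, TMM factors, quasi-likelihood test, two-sided, Benjamini-Hochberg adjustment over all miRNAs tested, threshold 0.05), which was tested on simulated data. The simulated counts had a common dispersion and no deviating sample, so that they do not cover a library like control replicate 3. Since hsa-miR-101-5p did not pass the filter, it was kept in for its own estimate, and for each alternative of it, after seeing the data. The alternatives were DESeq2 1.42.0, limma 3.58.1 on log2 of CPM with 1 or 0.1 added, other normalizations and filters, the replicate number as a block, an added count of 5 for the arm ratio, Spearman's rho, and leaving out each sample. Likeness was computed on log2 CPM with a prior count of 2. The miRNAs named were both arms, their seed relatives, the 5 most alike and the neighbours in level, those encoded within 10 kb, the marker miRNAs, and list members with an unadjusted p under 0.05. Others, such as the remaining list members and the names above miR-101 in arm balance, were named after their values were seen. The range of miR-142-3p over the alternatives was added after seeing the data. The members and lists were chosen with earlier results of these data known. Sequences came from RefSeq (GRCh38.p14), gene positions and 3′UTRs from GENCODE release 29 (GRCh38), and hairpins were folded with RNAfold 2.7.2.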

Additional observations from a re-analysis of the deposited data

How the results depend on the processing

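The log2 fold change of hsa-miR-101-3p kept its direction in 14 of 15 alternatives, from 0.062 to 0.20 outside the fits that left out a sample, and from -0.032 (without control replicate 3) to 0.29 in those. That of hsa-miR-101-5p kept its direction in 14 of 15, from 0.16 to 0.41 and, leaving out a sample, from -0.33 (without overexpression replicate 1) to 0.92. The difference in the arm ratio was -0.84 to 0.47 when samples were left out and -0.071 with a count of 5 added. Neither arm had an adjusted p under 0.05 in any of these fits. The count of edgeR calls at an adjusted p under 0.05, 0 with TMM factors (50 unadjusted), was 3 with the library size alone, 6 without a filter, and 0 to 56 leaving out a sample, 56 being without control replicate 3. Of the 5 miRNAs most like hsa-miR-101-3p, 2 were shared with the library size alone and 1 with Spearman's rho, and for hsa-miR-101-5p 4 and 3. The causes were not tested. The replicate block gave log2 fold changes of 0.20 for hsa-miR-101-3p and 0.41 for hsa-miR-101-5p, the arm ratio differed by -0.11, and 0 miRNAs were called (42 unadjusted). Same-numbered samples correlated by -0.21, 0.19 and 0.12 in their deviations from the group means, so the numbers were not taken to pair them. Depth limits hsa-miR-101-5p, with 42 counts in all.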
